A study of Mus musculus with 6 samples.

Results

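The AP-1 transcription factor family was examined in cells sorted from injured mouse retinas to enrich retinal ganglion cells (RGCs), which send their axons through the optic nerve. Its 10 members were chosen by name from the 55573 gene identifiers of the count table. They were the Fos proteins *Fos*, *Fosb*, *Fosl1* and *Fosl2*, the Jun proteins *Jun*, *Junb* and *Jund*, the related factor *Atf3*, and the small Maf proteins *Maff* and *Mafk*. All 10 passed the filter on low counts. Adult C57BL/6J mice of both sexes received an adeno-associated virus in the vitreous that carried *GFP* (AAV2-*GFP*, the control group) or *Ezh2* (AAV2-*Ezh2*), and in both groups the optic nerve was crushed 2 weeks later. *Ezh2* encodes the histone methyltransferase of the Polycomb complex PRC2. Live cells carrying the *Thy1* product CD90.2 were sorted 3 days after the crush, following papain digestion of the retinas in both groups. Each group had 3 libraries of total RNA. The labels do not say whether the libraries came from separate animals, so p values measure the spread between these samples, which may be technical.

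AP-1 is a dimer of basic leucine zipper (bZIP) proteins that binds DNA as a Fos-Jun or Jun-Jun pair. Fos proteins cannot form stable pairs with themselves, while Jun proteins can. Several of the family are immediate early genes, transcribed within minutes of a stimulus without new protein synthesis, and Jun is activated by phosphorylation through the JNK kinases. In the retina, Jun and Atf3 are known for their induction in RGCs after injury of the optic nerve, where they have been tied to both cell death and axon growth.

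Total counts ranged from 30569933 to 35971192 per library, so that a count of 0 would allow a level of up to 0.0834 to 0.0981 CPM (counts scaled to the library total), and no member was near this limit. *Ezh2* stood at 28.8, 34.6 and 33.0 CPM in GFP replicates 1 to 3 and at 78.0, 65.3 and 105 CPM in Ezh2 replicates 1 to 3, which follows the labels. Reads of the viral and the endogenous transcript cannot be told apart in these counts. Ezh2 replicate 3 stood apart from the others. Its log2 CPM values correlated across genes at 0.972 and 0.971 with the other Ezh2 libraries, which correlated at 0.988 with each other, and these values describe libraries, since genes are not independent replicates. The study left out 1 Ezh2 library, inferred here to be replicate 3, so every member is given in the comparison of 3 GFP with 2 Ezh2 libraries and again with all 6.

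The label of the sorted cells was only in part borne out by markers. *Thy1*, the sorted antigen, stood at 87.2 to 114 CPM and *Rbpms* at 16.4 to 20.8 CPM over the 6 libraries, but the RGC transcription factor *Pou4f1* was at most 0.6 CPM and *Pou4f2* was at or under the limit of 3 counts in every library. The 7 Müller glia markers summed to 23600 to 24100 CPM in the GFP libraries, 22500 to 24000 CPM in Ezh2 replicates 1 and 2 and 18400 CPM in Ezh2 replicate 3. Between the GFP libraries and Ezh2 replicates 1 and 2, 1 of them (*Apoe*) was called higher. Another 5 were lower by adjusted p alone, against 7.68% of tested genes, and the list median log2 fold change was -0.22. *Glul* averaged 9760 CPM in the GFP libraries and 6920 CPM in Ezh2 replicates 1 and 2, and *Apoe* 5540 and 9050 CPM. Marker sums of other cell types also differed between libraries. The 8 amacrine markers summed to 509 to 529 CPM in the GFP libraries and 441 to 449 CPM in Ezh2 replicates 1 and 2. In Ezh2 replicate 3 they summed to 398 CPM. Of the 7 tested, 1 (*Tfap2b*) was called lower, and by adjusted p alone 3 were lower. In the same order, the 6 bipolar markers summed to 609 to 617, 557 to 612 and 511 CPM. The 6 endothelial and mural markers summed to 2650 to 2800, 2550 to 2600 and 2060 CPM. Neither list had a called gene. For each marker list, the calls stand against 2.52% of all tested genes called higher and 1.28% called lower. The 8 macrophage markers summed to 186 to 209 CPM in the GFP libraries and 428 to 456 CPM in Ezh2 replicates 1 and 2. They summed to 362 CPM in Ezh2 replicate 3, and 4 of the 7 tested were called higher. The 8 T cell markers summed to 402 to 428 CPM, 515 to 539 CPM and 849 CPM in the same order, with 1 of 8 called higher. By adjusted p alone 7 of the 8 were higher, against 10.1% of tested genes. Microglia markers (8 genes) summed to 1250 to 1390 CPM, 1560 to 1650 CPM and 1110 CPM, with 1 called higher and 1 lower. By adjusted p alone 4 of them were higher and 1 lower. B cell markers (6 genes) summed to 947 to 963 CPM, 1090 to 1160 CPM and 851 CPM. Of these 0 were called, and 2 were higher by adjusted p alone. Both the microglia and the B cell sum were below the GFP range in Ezh2 replicate 3. Photoreceptor markers were higher in Ezh2 replicates 1 and 2. The 8 cone markers, all called higher, summed to 28.8 to 29 CPM, 58.1 to 66.7 CPM and 38.8 CPM. The 7 rod markers summed to 387 to 455 CPM, 698 to 739 CPM and 413 CPM. Of the rod markers 3 were called higher, and 6 were higher by adjusted p alone. *Gfap*, the filament protein of astrocytes and reactive Müller glia, stood at 413 to 426 CPM in the GFP libraries and 719 to 919 CPM in the Ezh2 libraries and was called higher. The other 3 of the 4 astrocyte markers were not called. *Pax2*, *Aldh1l1* and *S100b* had log2 fold changes of -0.31, -0.01 and 0.29. The 11 RGC markers summed to 140 to 144 CPM, 159 to 172 CPM and 173 CPM, with 1 of the 10 tested called higher. Most of this sum was *Thy1*, the sorted antigen, at 87.2 to 114 CPM, so the sum is a poor measure of RGC content. In bulk RNA a change in the number of cells of a type and a change in RNA per cell cannot be told apart, and the part of these markers in the changes of AP-1 genes was not tested.

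The DNA upstream of the 5 members that were called higher is shown here because regions of this kind are where signal-responsive sites of immediate early genes are commonly found. Each sequence gives the 250 bases before the transcription start in RefSeq (mouse build GRCm38.p6), written 5′ to 3′ on the strand of the gene, and capitals mark exact motif matches on either strand. The *Atf3* window lies at an internal start of the annotated gene.
*Fos* (chr12:85473640-85473889, plus strand): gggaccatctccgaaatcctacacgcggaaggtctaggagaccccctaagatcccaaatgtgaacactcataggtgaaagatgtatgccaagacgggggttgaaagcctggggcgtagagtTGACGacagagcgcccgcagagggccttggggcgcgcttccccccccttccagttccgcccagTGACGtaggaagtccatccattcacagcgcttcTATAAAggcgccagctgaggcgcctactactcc
*Fosb* (chr7:19310046-19310295, minus strand): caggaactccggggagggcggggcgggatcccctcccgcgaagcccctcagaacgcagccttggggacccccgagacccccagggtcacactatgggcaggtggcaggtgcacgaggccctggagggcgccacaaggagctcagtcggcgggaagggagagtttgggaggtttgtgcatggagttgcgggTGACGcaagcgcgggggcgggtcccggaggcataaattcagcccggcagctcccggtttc
*Jun* (chr4:95052223-95052472, minus strand): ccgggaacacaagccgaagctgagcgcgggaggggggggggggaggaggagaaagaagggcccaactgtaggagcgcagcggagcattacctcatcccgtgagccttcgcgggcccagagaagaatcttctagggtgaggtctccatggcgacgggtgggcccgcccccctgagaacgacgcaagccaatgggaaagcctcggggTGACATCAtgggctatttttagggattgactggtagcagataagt
*Junb* (chr8:84978749-84978998, minus strand): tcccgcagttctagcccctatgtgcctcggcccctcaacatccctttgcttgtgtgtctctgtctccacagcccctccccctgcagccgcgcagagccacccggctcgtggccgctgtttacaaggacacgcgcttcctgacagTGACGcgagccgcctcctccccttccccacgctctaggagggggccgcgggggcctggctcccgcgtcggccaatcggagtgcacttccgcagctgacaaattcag
*Atf3* (chr1:191183334-191183583, minus strand): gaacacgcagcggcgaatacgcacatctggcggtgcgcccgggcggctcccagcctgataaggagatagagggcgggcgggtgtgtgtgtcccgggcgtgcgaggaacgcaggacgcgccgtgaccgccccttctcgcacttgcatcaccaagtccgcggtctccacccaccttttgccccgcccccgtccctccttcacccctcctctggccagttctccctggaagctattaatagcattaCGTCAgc

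The motif of AP-1 itself and the sites of its upstream factors were searched in these windows. A window was found for 9 of the 10 members (11 windows, 3 of them for *Maff*), and 32851 windows of the same length were searched as background. The *Jund* window ends at chr8:70697738, upstream of the annotated gene start at 70698949. The *Fosl2* window starts at chr5:32136222, inside the annotated gene, which starts at 32135801. The half-site of the cAMP response element (CRE), TGACG, lay in windows of 6 members, *Fos*, *Fosb*, *Junb*, *Atf3*, *Maff* and *Mafk*. Counted by window, it lay in 7 of 11, against 17.8% of all windows. *Fos* carried it at both 129 and 66 bases before the start, and a TATA box (TATAAA) 33 bases before it. The full CRE, TGACGTCA, which contains the half-site on each strand, lay only in a *Maff* window among members and in 1.55% of all windows. *Jun* held TGACATCA, a variant CRE known from the *Jun* promoter, 45 bases before its start, and so did a *Maff* window, against 2.93% of all windows. The AP-1 site TGACTCA (4.46% of all windows) and the CArG box bound by serum response factor (1.47%) had no exact match in a member's window, and TATAAA lay in 12.4% of all windows. These matches are letters in a window and say nothing of whether a factor bound there. DNA upstream of the windows was not searched, so a window without a match does not show that its gene lacks the site. For *Fos* and the other members, the search therefore cannot say whether a CArG box or an AP-1 site lies farther upstream. The half-site was also present in *Mafk*, whose level did not pass the test, and absent from *Jun*, whose level did.

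**Figure D1:**
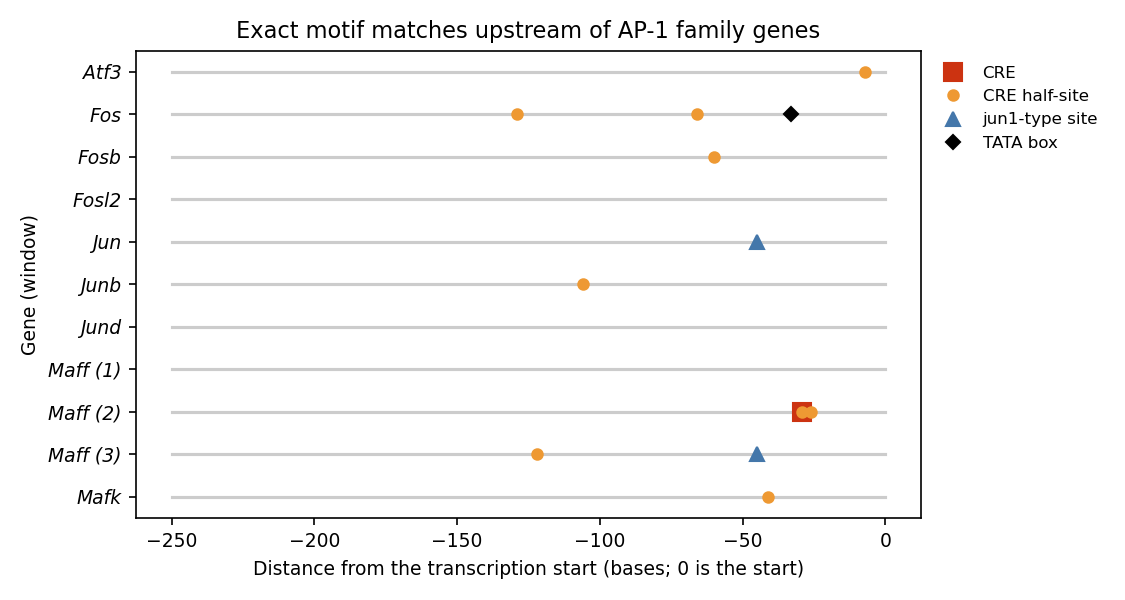
Exact motif matches (symbols) in the 250 bases upstream of the start of 9 AP-1 family genes, with distance from the transcription start in bases on the x axis and 1 line per window. *Fos* holds 2 CRE half-sites and a TATA box, and *Jun* and a *Maff* window hold the variant TGACATCA. The *Fosl2* and *Jund* windows hold no searched motif, but neither lies directly before the annotated start of its gene.

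To ask how the family differed between the Ezh2 and GFP groups, gene counts were compared with the quasi-likelihood test of edgeR. Calls were made where the fold change was above 1.5 and the adjusted p under 0.05. Of the 10 members, 5 were called higher (*Fos*, *Fosb*, *Jun*, *Junb* and *Atf3*) and 0 lower, against 2.52% of the 20241 tested genes called higher and 1.28% called lower. At an unadjusted p under 0.05, the edgeR test passed 7 members, all of them higher, and DESeq2 and limma-voom likewise called 0 lower. The share of all tested genes at an unadjusted p was not computed, here or for the lists below. It is at least the 10.1% higher and 7.68% lower found by adjusted p alone. With all 6 libraries the same 5 were called, against 1.62% of 19732 tested genes called higher and 0.902% lower. By adjusted p alone 7 members were higher in the 5 libraries, where *Fosl2* and *Jund* joined them, against 10.1% of tested genes. All 3 Ezh2 libraries lay above all 3 GFP libraries for those 7 members, which held for 14.9% of tested genes. The median log2 fold change of the members was 0.52 (0.55 with all 6 libraries), and that of all tested genes was -0.008 (0.008).

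**Figure D2:**
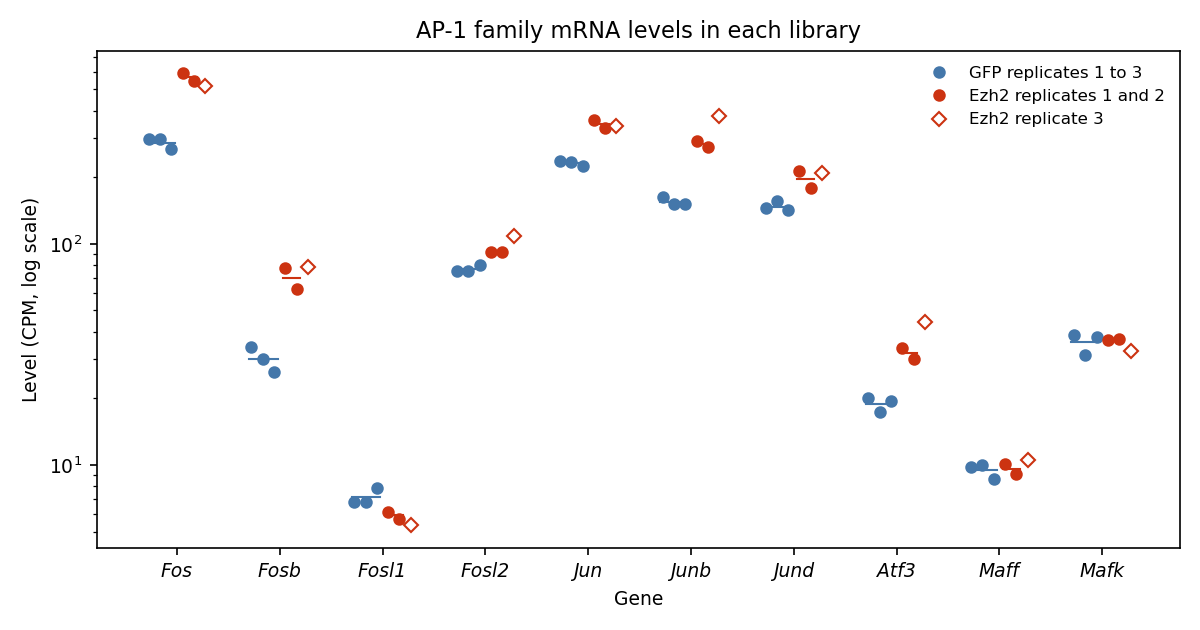
Level of each AP-1 family gene in CPM (y axis, log scale) in every library. Points are libraries (GFP blue, Ezh2 replicates 1 and 2 filled red, Ezh2 replicate 3 open diamond) and short lines are means, over all GFP libraries and over the filled Ezh2 points. The Ezh2 libraries lie above the GFP libraries for 7 genes and below them for *Fosl1*.

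Among the Fos proteins, the partners that need a Jun protein to bind DNA, *Fos* was the most abundant. *Fos* (ENSMUSG00000021250, chr12:85473890-85477273, plus strand, GRCm38) stood at 298, 297 and 268 CPM in GFP replicates 1 to 3 and at 590, 545 and 518 CPM in Ezh2 replicates 1 to 3. The groups did not overlap, and replicate 3 was the lowest of the Ezh2 libraries. From a control mean of 287 ± 17.1 CPM (SD, n = 3), *Fos* rose 1.99-fold, a log2 fold change of 0.99 ± 0.05 (SE, 95% interval 0.89 to 1.10; edgeR adjusted p = 1.26e-14). With all 6 libraries the log2 fold change was 0.98 ± 0.07 (edgeR adjusted p = 0.000266), a nearly equal size with a wider error.

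*Fosb* encodes a close relative of Fos whose truncated splice product, ΔFosB, is unusually stable and accumulates on repeated stimulation. *Fosb* (ENSMUSG00000003545, chr7:19302696-19310051, minus strand) stood at 34.3, 30.3 and 26.3 CPM in the GFP libraries and at 77.6, 62.4 and 78.3 CPM in the Ezh2 libraries. The lowest Ezh2 library was above the highest GFP library. Its log2 fold change of 1.22 ± 0.11 (95% interval 0.98 to 1.45; edgeR adjusted p = 5.32e-06) was the largest of the family, and its interval overlapped that of *Fos*. Over the 6 libraries it was 1.31 ± 0.13 (edgeR adjusted p = 0.0013). Gene counts do not separate its splice products.

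*Fosl1* and *Fosl2* encode Fra-1 and Fra-2, Fos proteins that lack the strong activation domain of Fos and usually appear later than Fos after a stimulus. *Fosl2* (ENSMUSG00000029135, chr5:32135801-32157842, plus strand) stood at 75.1, 75.2 and 80.3 CPM in the GFP libraries and at 91.9, 91.6 and 109 CPM in the Ezh2 libraries. The groups did not overlap, but its log2 fold change of 0.27 ± 0.06 (95% interval 0.15 to 0.38; edgeR adjusted p = 0.00113) was below the fold threshold, and with all 6 libraries it was 0.38 ± 0.10 (edgeR adjusted p = 0.0529). *Fosl1* (ENSMUSG00000024912, chr19:5447547-5455946, plus strand) was the only member with lower values in every Ezh2 library, at 6.77, 6.82 and 7.84 CPM in the GFP libraries against 6.12, 5.71 and 5.34 CPM. Its log2 fold change of -0.26 ± 0.16 (95% interval -0.60 to 0.07; edgeR adjusted p = 0.303) did not pass the test. The share of all tested genes with every Ezh2 library below every GFP library was not computed. The interval for *Fosl1* lay below those of *Fos*, *Fosb* and *Fosl2*. Exons of *Fosl1* share 1163 bp with the antisense gene *Ccdc85b*, and whether strand was used in counting is not given in the sources used here. *Ccdc85b* stood at 27.4 to 29.7 CPM in the GFP libraries and 31.3 to 34.0 CPM in the Ezh2 libraries, the opposite direction, with an edgeR adjusted p of 0.0689.

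The Jun proteins, which can bind DNA as pairs of their own and also partner Fos, were all higher in the Ezh2 libraries, by different amounts. *Jun* (ENSMUSG00000052684, chr4:95049034-95052222, minus strand), the target of JNK signaling, stood at 236, 234 and 224 CPM in the GFP libraries and at 363, 335 and 340 CPM in the Ezh2 libraries. The spread within each group was small beside the gap between them. *Jun* rose 1.52-fold, a log2 fold change of 0.61 ± 0.05 (95% interval 0.50 to 0.71; edgeR adjusted p = 2.59e-10), just past the fold threshold. The value over 6 libraries was 0.62 ± 0.06 (edgeR adjusted p = 0.0011). Since the interval reaches below a 1.5-fold change, the call depends on single libraries, and without GFP replicate 3 or without Ezh2 replicate 1 the log2 fold change was 0.58 or 0.56 and the call was lost.

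*Junb* encodes a Jun protein with weaker activation that can restrain Jun on some promoters. *Junb* (ENSMUSG00000052837, chr8:84974484-84978718, minus strand) stood at 162, 151 and 151 CPM in the GFP libraries and at 292, 275 and 379 CPM in the Ezh2 libraries. Every Ezh2 library was above every GFP library, and replicate 3 was 1.34 times the mean of the other Ezh2 libraries. The log2 fold change was 0.88 ± 0.05 (95% interval 0.78 to 0.99; edgeR adjusted p = 9.87e-14) and 1.07 ± 0.14 with all 6 libraries (edgeR adjusted p = 0.00822). The intervals of *Junb* and *Jun* in the 5 libraries did not overlap. When any GFP library was left out of the 6, the log2 fold change of *Junb* stayed at 1.05 to 1.11 but the call was lost, at edgeR adjusted p values of 0.0512 to 0.0688.

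*Jund* encodes the Jun protein that is usually made constantly and is the least inducible of the family. *Jund* (ENSMUSG00000071076, chr8:70698949-70700616, plus strand) stood at 145, 156 and 142 CPM in the GFP libraries and at 214, 179 and 209 CPM in the Ezh2 libraries. The groups did not overlap, and replicate 2 lay nearest to the control group. The log2 fold change of 0.42 ± 0.06 (95% interval 0.30 to 0.55; edgeR adjusted p = 1.41e-05) stayed below the fold threshold, as did 0.48 ± 0.09 with all 6 libraries (edgeR adjusted p = 0.0157). Exons of the Jun genes also share bases with antisense genes, 232 bp for *Jun* with *Junos*, 173 bp for *Junb* with *Prdx2* and 877 bp for *Jund* with *Gm11175*. *Junos* (2.67 to 3.48 CPM) and *Gm11175* (0.491 to 1.55 CPM) were far below their partners in every library. *Prdx2* stood at 119 to 121 CPM in the GFP libraries and 125 to 144 CPM in the Ezh2 libraries.

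*Atf3* encodes a stress-induced bZIP factor that pairs with Jun proteins and is a common mark of injured neurons. *Atf3* (ENSMUSG00000026628, chr1:191170296-191218039, minus strand) stood at 20, 17.4 and 19.4 CPM in the GFP libraries and at 33.9, 30.3 and 44.3 CPM in the Ezh2 libraries. The groups did not overlap, and replicate 3 was 1.38 times the mean of the other Ezh2 libraries. *Atf3* rose 1.71-fold, a log2 fold change of 0.77 ± 0.09 (95% interval 0.59 to 0.96; edgeR adjusted p = 1.94e-07). Including Ezh2 replicate 3, the value was 0.98 ± 0.16 (edgeR adjusted p = 0.0119), and when any GFP library was left out of the 6 it was 0.92 to 1.02 but the call was lost, at edgeR adjusted p values of 0.0749 to 0.0883.

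The small Maf proteins lack an activation domain and act as partners of other bZIP factors such as Bach and Nrf proteins, and neither changed detectably. *Maff* (ENSMUSG00000042622, chr15:79346621-79359076, plus strand) stood at 9.78, 9.98 and 8.65 CPM in the GFP libraries and at 10.1, 9.13 and 10.5 CPM in the Ezh2 libraries. *Mafk* (ENSMUSG00000018143, chr5:139791513-139802653, plus strand) stood at 38.7, 31.4 and 38.1 CPM and at 36.7, 37.3 and 32.7 CPM. The groups overlapped for both genes. The log2 fold change of *Maff* was 0.03 ± 0.14 (95% interval -0.25 to 0.31; edgeR adjusted p = 0.916). That of *Mafk* was 0.05 ± 0.09 (95% interval -0.13 to 0.22; edgeR adjusted p = 0.765). Both intervals leave out a 1.5-fold change in either direction, which also held with all 6 libraries, where the values were 0.11 ± 0.14 and 0.02 ± 0.10 (edgeR adjusted p = 0.663 and 0.924). *Mafk* shares 169 bp of exon with *Tmem184a*, which had at most 10 counts in any library.

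**Figure D3:**
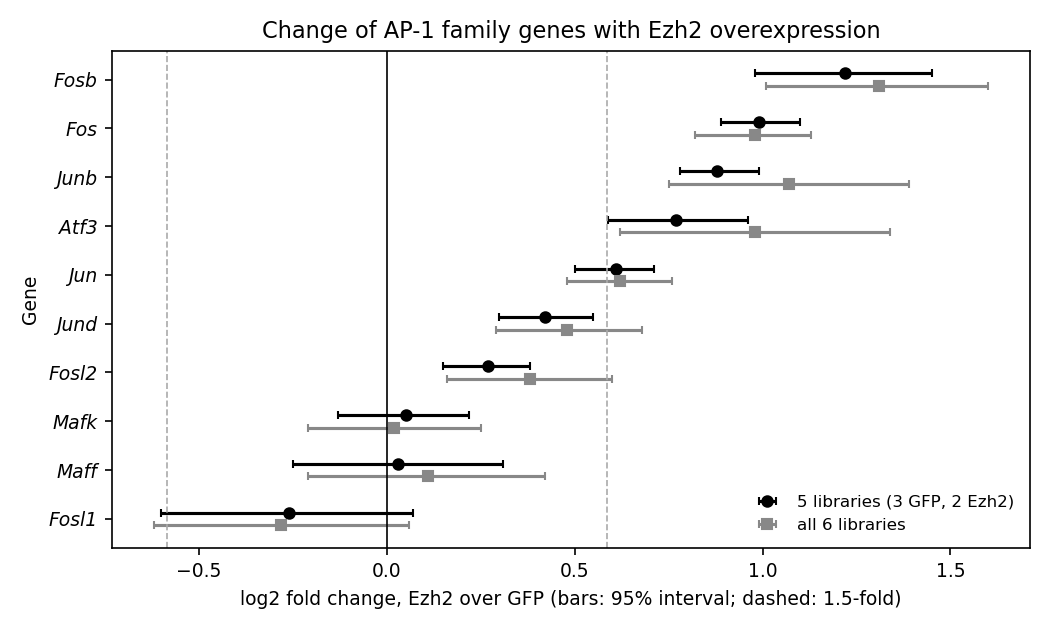
log2 fold change of each AP-1 family gene (x axis, Ezh2 over GFP) with 95% intervals, from 5 libraries (black circles) and all 6 (grey squares). Dashed lines mark a 1.5-fold change. The 5-library intervals of *Fos*, *Fosb*, *Junb* and *Atf3* lie past 1.5-fold, that of *Jun* spans it, and those of *Maff*, *Mafk* and *Fosl1* include 0.

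When the test asked instead for a change above 1.5-fold (glmTreat of edgeR), *Fos*, *Fosb* and *Junb* passed, at adjusted p values of 6.15e-07, 0.00134 and 5.64e-05. *Atf3* and *Jun* did not pass this edgeR test, at adjusted p values of 0.424 and 1. The estimates of all 10 members kept their sign with all 6 libraries. The interval of *Jun* overlapped those of *Jund* and *Atf3*, so its place between them is not set by these data.

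Levels were compared between genes per kb of exon (RPKM), since CPM rises with transcript length. In the GFP libraries *Fos* was highest, at 122 ± 7.25 RPKM, followed by *Jund* at 88.4 ± 4.36, *Jun* at 72.5 ± 2.03 and *Junb* at 67.3 ± 2.82 RPKM (mean ± SD, n = 3). The levels of *Jun* and *Junb* overlapped, at 70.2 to 73.9 and 65.7 to 70.6 RPKM, while *Fos*, *Jund* and *Jun* were separate in all 3 libraries. The other 6 members were far lower, between 3.51 RPKM for *Fosl1* and 9.24 RPKM for *Mafk*. In Ezh2 replicates 1 and 2 *Fos* reached 241 ± 13.4 RPKM, *Junb* 123 ± 5.32, *Jund* 118 ± 15.1 and *Jun* 109 ± 6.17 RPKM (n = 2). *Junb*, the lowest of the abundant genes in the control group, overlapped *Jund* and lay just above *Jun* in these libraries. Among all tested genes ordered by level per kb, *Fos* was at place 193 in the GFP libraries and place 89 in Ezh2 replicates 1 and 2, while *Fosl1* was at 10486 and 11157.

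The composition of the family shifted with these unequal changes. All 10 members summed to 398, 395 and 373 RPKM in the GFP libraries and to 674, 613 and 677 RPKM in the Ezh2 libraries. The sum of the Fos proteins went from 138 ± 7.22 to 265 ± 15.3 RPKM and that of the Jun proteins from 228 ± 6.37 to 350 ± 26.6 RPKM between the GFP libraries and Ezh2 replicates 1 and 2, while the small Maf sum was 12.9 ± 0.917 and 13.2 ± 0.162 RPKM. *Fos* made up 31.4 ± 0.818% of the family in the GFP libraries, 37.5 ± 0.437% in Ezh2 replicates 1 and 2 and 32.5% in Ezh2 replicate 3. *Jund* made up 22.8 ± 0.913%, 18.3 ± 1.12% and 18.5%, a lower share beside a higher level. *Junb* made up 17.3 ± 0.589%, 19.2 ± 0.461% and 24.4%. These shares are descriptions and were not tested.

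Ratios within a library do not depend on its depth or scaling. The ratio of *Fos* to *Jun*, per kb, was 1.71, 1.72 and 1.62 in the GFP libraries and 2.20, 2.21 and 2.06 in the Ezh2 libraries. The ratio of *Junb* to *Jund* was 0.813, 0.704 and 0.772 against 0.989, 1.12 and 1.31. Both ratios were higher in every Ezh2 library than in any GFP library. The ratio of *Jun* to *Jund* overlapped at 0.786 to 0.852 and 0.851 to 0.982, and that of *Maff* to *Mafk* at 0.342 to 0.479 and 0.369 to 0.483. These ratios were not tested.

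**Figure D4:**
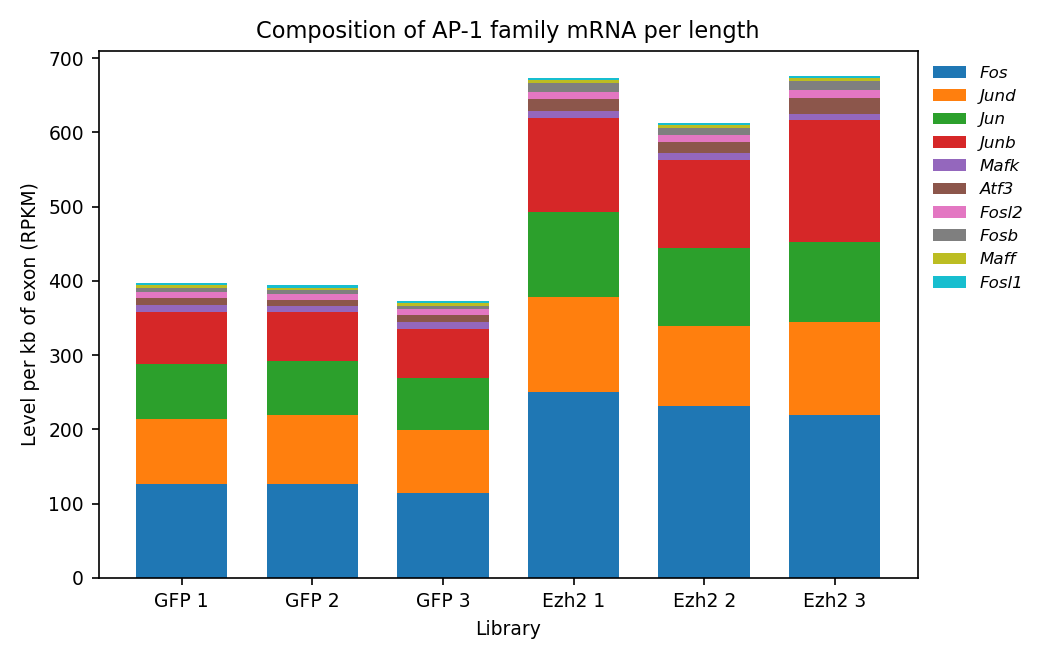
Stacked level of the 10 AP-1 family genes per kb of exon (y axis, RPKM, starting at 0) in each library. The sum is 373 to 398 RPKM in the GFP libraries and 613 to 677 RPKM in the Ezh2 libraries, with *Fos*, *Jund*, *Jun* and *Junb* making up most of every bar and the *Junb* block tallest in Ezh2 replicate 3.

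The other bZIP proteins that pair with AP-1 members were read next, to see whether the change reached beyond the family. Of the 18 listed, all tested in the 5 libraries, 0 were called by edgeR, DESeq2 or limma-voom, against 2.52% of tested genes called higher, and their median log2 fold change was 0.00. At an unadjusted p under 0.05 the edgeR test passed 8. By adjusted p alone 5 were higher and 2 lower, against 10.1% and 7.68% of tested genes. Those higher included *Batf*, *Maf*, *Bach1* and *Nfe2l2*, and those lower were *Atf7* and *Creb5*, named after their values were seen. *Atf2*, a Jun partner at the CRE, stood at 64.7 to 66.9 CPM in the GFP libraries and 49.4 to 62.6 CPM in the Ezh2 libraries, with a log2 fold change of -0.07 (edgeR adjusted p = 0.533). *Mafg*, the third small Maf gene, stood at 67.8 to 69.1 and 65.1 to 70.7 CPM.

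*Batf*, a bZIP factor of lymphocytes that pairs with Jun proteins, differed mainly in 1 library. It stood at 13.8, 11.2 and 13 CPM in the GFP libraries, 16.7 and 17.1 CPM in Ezh2 replicates 1 and 2 and 62.2 CPM in Ezh2 replicate 3. Its log2 fold change was 0.43 in the 5 libraries (edgeR adjusted p = 0.00726) and 1.40 with all 6 (edgeR adjusted p = 0.263). The T cell markers were also highest in Ezh2 replicate 3, at a sum of 849 CPM, and their part in the *Batf* value was not tested. No AP-1 family member departed from the other Ezh2 libraries to this extent.

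Upstream of AP-1 lie the MAP kinase cascades and the dual-specificity phosphatases (*Dusp* genes) that end their signals. The factors Elk, Srf and Creb1, which regulate *Fos*, were listed with them. Of 32 such genes, all tested, 0 were called by edgeR, DESeq2 or limma-voom in the 5 libraries, against 2.52% of tested genes called higher and 1.28% lower, and the median log2 fold change was 0.00. The edgeR test passed 13 at an unadjusted p under 0.05, and by adjusted p alone 6 were higher and 5 lower, against 10.1% and 7.68% of tested genes. The JNK genes *Mapk8* and *Mapk9* had log2 fold changes of -0.02 and -0.05 (edgeR adjusted p = 0.902 and 0.632). *Mapk10*, the JNK gene mainly found in neurons, stood at 100, 104 and 111 CPM in the GFP libraries and at 94.5, 85.8 and 81.2 CPM in the Ezh2 libraries, with a log2 fold change of -0.21 (edgeR adjusted p = 0.0091). *Map3k12*, which encodes DLK, the kinase that starts the JNK response to axon injury, had a log2 fold change of -0.13 (edgeR adjusted p = 0.22). Beside *Mapk10*, the genes lower by adjusted p alone were *Map3k5*, *Map3k13*, *Dusp16* and *Fbxw7*, named after their values were seen. These are mRNA levels, and the activity of the kinases was not measured.

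*Dusp1*, an immediate early phosphatase that acts on JNK and p38, stood at 65.0, 53.7 and 52.1 CPM in the GFP libraries and at 84.6, 68.9 and 78.1 CPM in the Ezh2 libraries. The groups did not overlap, and its log2 fold change of 0.44 (edgeR adjusted p = 0.0191) stayed below the fold threshold. The other genes higher by adjusted p alone, named after their values were seen, were *Srf*, *Elk3*, *Dusp2*, *Dusp6* and *Map3k1*. *Srf*, the serum response factor, stood at 22 to 26.1 CPM in the GFP libraries and 31.7 to 39.6 CPM in the Ezh2 libraries (log2 fold change 0.40, edgeR adjusted p = 0.0013). *Elk3*, a partner of Srf, stood at 29.2 to 34.4 CPM against 41.5 to 57.7 CPM (log2 fold change 0.40, edgeR adjusted p = 0.000504). *Dusp6*, a phosphatase of ERK, and *Map3k1*, a kinase upstream of JNK, had log2 fold changes of 0.41 and 0.19 (edgeR adjusted p = 4.36e-07 and 0.00754). The groups did not overlap for *Srf*, *Elk3*, *Dusp6* or *Map3k1*, and none of them reached the fold threshold in the 5 libraries. In the comparison of all 6 libraries 1 gene of the list was called, *Dusp2*, at a log2 fold change of 0.68 (edgeR adjusted p = 0.0335). Of all tested genes 1.62% were called higher there.

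Genes that AP-1 is known to regulate in other settings were mixed. Of 24 listed, 23 were tested and 8 were called higher and 0 lower by edgeR, DESeq2 and limma-voom, against 2.52% and 1.28% of tested genes, with a median log2 fold change of 0.52. At an unadjusted p under 0.05 the edgeR test passed 16 in either direction. By adjusted p alone 12 were higher and 1 lower, against 10.1% and 7.68% of tested genes. The lower gene was *Vegfa*, named after its value was seen. With all 6 libraries 7 were called higher, against 1.62% of tested genes, and 5 of them were shared with the 8. *Spp1*, which encodes the secreted protein osteopontin, was the extreme value, at 8.21, 8.09 and 6.77 CPM in the GFP libraries and 105, 159 and 88.0 CPM in the Ezh2 libraries. Its log2 fold change was 4.12 ± 0.28 (edgeR adjusted p = 0.00441), and the study itself singled out *Spp1*, *Sprr1a*, *Myc*, *Atf3* and *Jun* in these libraries, so their directions here are not independent evidence.

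Other called targets changed on the scale of the AP-1 genes themselves. *Sprr1a*, a protein of injured neurons that regrow axons, was low, at 0.458, 1.11 and 1.89 CPM in the GFP libraries and 2.76, 2.97 and 3.39 CPM in the Ezh2 libraries (log2 fold change 1.33 ± 0.39, edgeR adjusted p = 0.0206), and it was not called with all 6 libraries (edgeR adjusted p = 0.089). *Timp1*, an inhibitor of matrix metalloproteinases, stood at 12.6 to 16.2 CPM against 21.3 to 27.1 CPM. *Plau*, the urokinase protease, stood at 11.6 to 16.6 CPM against 18.5 to 26.0 CPM. For both the groups did not overlap, with log2 fold changes of 0.89 and 0.77 (edgeR adjusted p = 4.22e-07 and 6.08e-05). *Hmox1*, the heme-degrading oxygenase, stood at 13.9 to 15.8 CPM against 19.5 to 28.5 CPM, and *Ptgs2*, cyclooxygenase-2, at 2.16 to 3.03 CPM against 3.36 to 4.5 CPM. Their log2 fold changes were 0.79 and 0.80 (edgeR adjusted p = 2.65e-06 and 0.0132), and *Ptgs2* was not called with all 6 libraries (edgeR adjusted p = 0.0936). Macrophage markers, whose sums are given above, were higher in the same libraries, and their part in the target levels was not tested.

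Immediate early genes outside the AP-1 family were compared as the group induced by like stimuli. Of 19 listed, 18 were tested, and 7 were called higher and 0 lower, against 2.52% and 1.28% of tested genes, with a median log2 fold change of 0.50. At an unadjusted p under 0.05 the edgeR test passed 13, all higher, and DESeq2 and limma-voom likewise called 7 higher and 0 lower. In the comparison of all 6 libraries 6 were called, each of them among the 7, against 1.62% of tested genes called higher. *Egr1*, a zinc finger factor induced through the same serum response route as *Fos*, stood at 89.6, 94.5 and 88.0 CPM in the GFP libraries and at 188, 162 and 167 CPM in the Ezh2 libraries. Its log2 fold change of 0.95 ± 0.06 (edgeR adjusted p = 1.9e-13) was near that of *Fos*. *Ier2* stood at 32.2 to 37.3 CPM against 71.5 to 73.6 CPM, a log2 fold change of 1.11 ± 0.07 (edgeR adjusted p = 1.27e-12).

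*Egr3*, *Socs3* and *Zfp36* were also higher in every Ezh2 library. *Egr3*, a relative of *Egr1*, stood at 2.81 to 3.14 CPM against 5.19 to 7.12 CPM (log2 fold change 0.89, edgeR adjusted p = 0.00252). *Socs3*, a brake on cytokine signaling that also limits optic nerve regeneration, stood at 96.5 to 107 CPM against 182 to 192 CPM (log2 fold change 0.83, edgeR adjusted p = 1.34e-12). *Zfp36*, which marks inflammatory mRNAs for decay, stood at 73.3 to 82.4 CPM against 121 to 139 CPM (log2 fold change 0.74, edgeR adjusted p = 4.95e-10). *Myc*, a growth-promoting factor, stood at 9.11 to 10.3 CPM in the GFP libraries, 16.1 and 13.5 CPM in Ezh2 replicates 1 and 2 and 48.5 CPM in Ezh2 replicate 3, and it was called in the 5 libraries (log2 fold change 0.61, edgeR adjusted p = 0.000518) but not with all 6 (edgeR adjusted p = 0.208). Beside *Myc* in replicate 3 stood the high T cell marker sum given above, whose part was not tested.

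**Figure D5:**
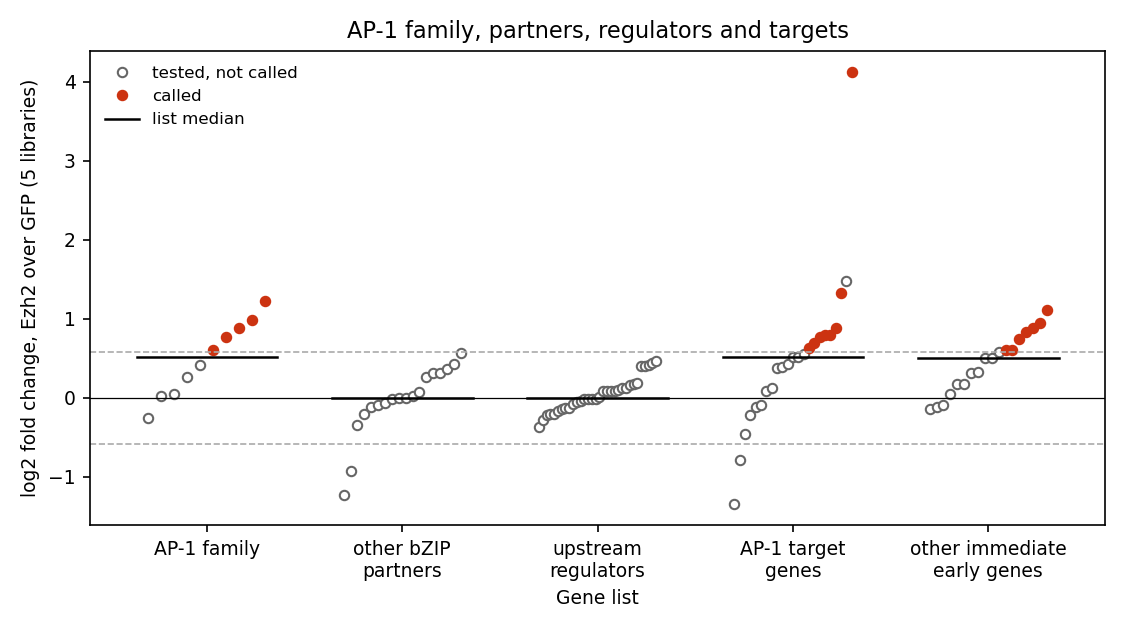
log2 fold change (y axis, Ezh2 over GFP, 5 libraries) of every tested gene in the AP-1 family and in 4 related gene lists, each sorted from lowest to highest. Filled points are called genes, horizontal bars are list medians and dashed lines mark a 1.5-fold change. The medians are 0.52 for the AP-1 family, 0.00 for the other bZIP partners and the upstream regulators, 0.52 for the AP-1 target genes and 0.50 for the other immediate early genes.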

How the data were processed

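RNA-Seq was analyzed from 3 GFP and 3 Ezh2 libraries. The authors deposited raw read counts per Ensembl gene. The submitters' processing notes name GRCm38 and STAR 2.7.0d, per the labels the libraries were stranded total RNA, and the counting program, annotation release and strand setting are not given in the sources used here. Of 55573 identifiers, 55480 matched GENCODE M21 (GRCm38), which supplied symbols, coordinates and exon lengths. Counts scaled to library totals gave CPM, and CPM per kb of exon gave RPKM. Intervals and limits cover counting error or the spread between these libraries only, because reads carry no molecular identifiers. Each library was counted as 1 replicate. All pairs of libraries differed by more than sampling noise (chi-square per degree of freedom at least 5.17). Separate preparations of 1 sample could differ in this way too, so this does not show that the libraries came from separate animals.

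The 3 GFP libraries were compared with Ezh2 replicates 1 and 2. The excluded library is inferred from the columns of the study's heatmaps. After filterByExpr and TMM scaling, counts were tested with the robust quasi-likelihood fit of edgeR 4.0.16 in R 4.3.3, two-sided, with Benjamini-Hochberg adjustment over all tested genes and no covariate. SE and intervals were derived from the F statistic. Promoter windows came from RefSeq (GRCm38.p6). The script was tested on simulated counts. Other settings tried were all 6 libraries, omission of each library, a block for replicate number, DESeq2 1.42.0, limma-voom (limma 3.58.1), other scaling, filters and thresholds, and a non-robust fit chosen after seeing the data. Plots were drawn with matplotlib 3.10.9.

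The members and all gene lists were chosen with earlier results of these data known. The text names all 10 members and, from each other list, every called gene or, where more than 6 were called, the 6 with the largest change, plus a few preset examples. Genes named outside this rule are said to be so. The values of 1 gene among the other bZIP partners are not reported here.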

Additional observations from a re-analysis of the deposited data

How the results depend on the processing

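*Fos* and *Fosb* kept their calls in all 20 alternatives run for them, at log2 fold changes of 0.93 to 1.04 and 1.07 to 1.41. *Jun* (0.56 to 0.65), *Junb* (0.85 to 1.17) and *Atf3* (0.70 to 1.10) each lost the call in 3 of 20 and kept their direction in all. *Fosl1*, *Fosl2* and *Jund* kept their sign and stayed uncalled. *Fosl1* and *Maff*, the members with the fewest counts, had the widest errors in the 5 libraries. With all 6 libraries 498 genes were called (320 higher, 178 lower) in place of 770, and 1 upstream regulator in place of 0. By adjusted p alone the counts were 3605 genes (2050 higher, 1555 lower), 7 members, 7 bZIP partners, 11 upstream regulators, 13 targets and 13 other immediate early genes. Against a 1.5-fold change (glmTreat) they were 180 genes (126 higher, 54 lower), 3 members, 1 target and 3 immediate early genes.

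Leaving out each library in turn, from the 5 or from the 6, gave 110 to 794 genes, 3 to 5 members, 0 to 1 bZIP partner, 0 to 1 upstream regulator, 1 to 8 targets and 5 to 9 immediate early genes. The lowest counts came without a GFP library of the 6, at 110, 187 and 126 genes without GFP replicate 1, 2 or 3, and 3 members each time. Without Ezh2 replicate 1 or 2 of the 6, 416 and 423 genes and 3 and 4 targets were called. The 1 bZIP partner was called without GFP replicate 1 and without GFP replicate 2. *Ezh2* itself ranged from 1.05 to 1.56 and lost its call without GFP replicate 1, 2 or 3 of the 6 (1.34, 1.47 and 1.43, edgeR adjusted p up to 0.0877). With 1 Ezh2 library left, it is assumed to vary like the other libraries. *Maff* ranged from -0.03 to 0.17, with -0.03 without GFP replicate 3 and without Ezh2 replicate 1 and 0.09 without Ezh2 replicate 2, and *Mafk* from -0.07 to 0.10, with -0.04 and -0.07 without GFP replicate 2 of the 5 or the 6 and -0.01 without Ezh2 replicate 2 of the 6. Where leaving out a library changed a call, the cause was not tested.

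Samples that shared a replicate number did not deviate together (correlations of -0.00454, -0.0199 and -0.00991). With the replicate block 722 genes and 4 members were called in the 5 libraries, *Jun* falling to 0.58 and *Maff* to -0.03. In all 6 libraries the replicate block gave 396 genes (275 higher, 121 lower), 5 members and 1 upstream regulator.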
